A study of Homo sapiens with 6 samples.

Results

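The TRIM (tripartite motif) genes are a large human family, taken here as every gene row on a chromosome whose name is TRIM, a number and at most one letter A to C. The rule gave 71 genes of the 63299 rows in the deposited table, and 43 of the 71 had enough reads to be tested, among 21101 tested genes in all. A further 42 chromosome rows with names starting TRIM (pseudogenes, antisense transcripts, read-through transcripts and copies with other suffixes) lay outside the rule. The data are RNA sequencing of LNCaP, an androgen-dependent line of human prostate cancer cells. All groups carried a doxycycline-induced hairpin against MEP50, the partner protein of the arginine methyltransferase PRMT5, encoded by WDR77. Doxycycline was added to the cells of 3 libraries (the knockdown group) and withheld from those of the other 3 (the control group). No group had doxycycline without the hairpin, so an effect of the drug cannot be told apart from the knockdown.

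A TRIM protein usually starts with a RING finger, which recruits a ubiquitin-loaded E2 enzyme, followed by one or both B-box zinc fingers and a coiled coil through which the proteins assemble. The carboxy-terminal part differs between members, and it is used to sort them into classes: a PRY-SPRY domain that recognises other proteins, a PHD finger with a bromodomain that reads histones, NHL repeats that can bind RNA, and others. Many members tag proteins with ubiquitin in innate immunity, some restrict viruses directly, and several act on p53, on the androgen receptor or on chromatin.

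The libraries held 18568002 to 36234784 counts on genes, and the 71 TRIM genes took 0.204% to 0.23% of them. The hairpin's target WDR77 fell in the knockdown libraries (log2 fold change -1.67, adjusted p 0.00131, edgeR quasi-likelihood test). CPM below are counts relative to the scaled library total, and RPKM are these values per kilobase of exon. All 9 luminal prostate markers were present and had lower estimates in knockdown (4305 to 4891 CPM summed in knockdown and 7411 to 8756 in control). Of the 9, 4 fell (44.4%, where 4.88% of all tested genes fell). In the fit with the replicate block, explained below, 6 were lower (66.7%, against 14.9%). Of 3 basal markers KRT5 was at 0 reads and TP63 had at most 1 read per library, while KRT14 had 0, 0 and 5 reads in knockdown and 20, 20 and 39 in control. KRT14 fell (adjusted p 0.0338, edgeR), with adjusted p 0.0663, 0.118, 0.0659 and 0.102 when knockdown replicate 1 or 2 or control replicate 1 or 3 was omitted. The defining markers PTPRC, CD3E, PECAM1 and CDH5 had at most 2 reads per library, and the leukocyte list came mostly from CD68, with 7 to 47 reads. The summed levels of the leukocyte list (0.366 to 0.857 CPM in knockdown, 0.833 to 1.46 in control) and the endothelial list (10.5 to 26.0 and 18.6 to 39.0, mostly VWF) overlapped between groups, as did the fibroblast list (9.92 to 13.1 and 6.17 to 14.7, mostly COL1A1). The part of these markers in the TRIM values was not tested. Libraries with the same replicate number varied together, so calls of tested TRIM members are given from 2 fits, without and with the replicate pairs as a block. Several other genes are given from the fit without the block only. VWF was called lower with the block (log2 fold change -0.76, adjusted p 0.000632, edgeR) and not without it (0.23). A gene is said to have risen or fallen where its adjusted p was under 0.05 without the block. In bulk RNA, fewer cells of a type and less RNA per cell cannot be told apart.

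LNCaP cells expressed most of the tested family at moderate levels, and 1 member stood above all others. TRIM28, the co-repressor that KRAB zinc finger proteins bring to DNA, had a mean of 81.9 RPKM over the 6 libraries. It made up 18.7% to 26% of the summed RPKM of the 43 tested members in any 1 library. The next by level were TRIM68, a coactivator of the androgen receptor (21.3 RPKM), TRIM25, a ligase of the RIG-I antiviral pathway (16.9 RPKM), TRIM27 (15.5 RPKM) and TRIM65, a ligase of the MDA5 antiviral pathway (14.3 RPKM). The RPKM ranges of neighbouring genes in this order overlapped from TRIM68 downward through these 4. The median of the tested members was 8.0 RPKM, 12 members were over 10 RPKM, and 7 were under 1 RPKM. TRIM22, the member that rose, was among those 7, at 0.47 RPKM, as was TRIM29, a basal epithelial member at 0.09 RPKM.

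**Figure D1:**
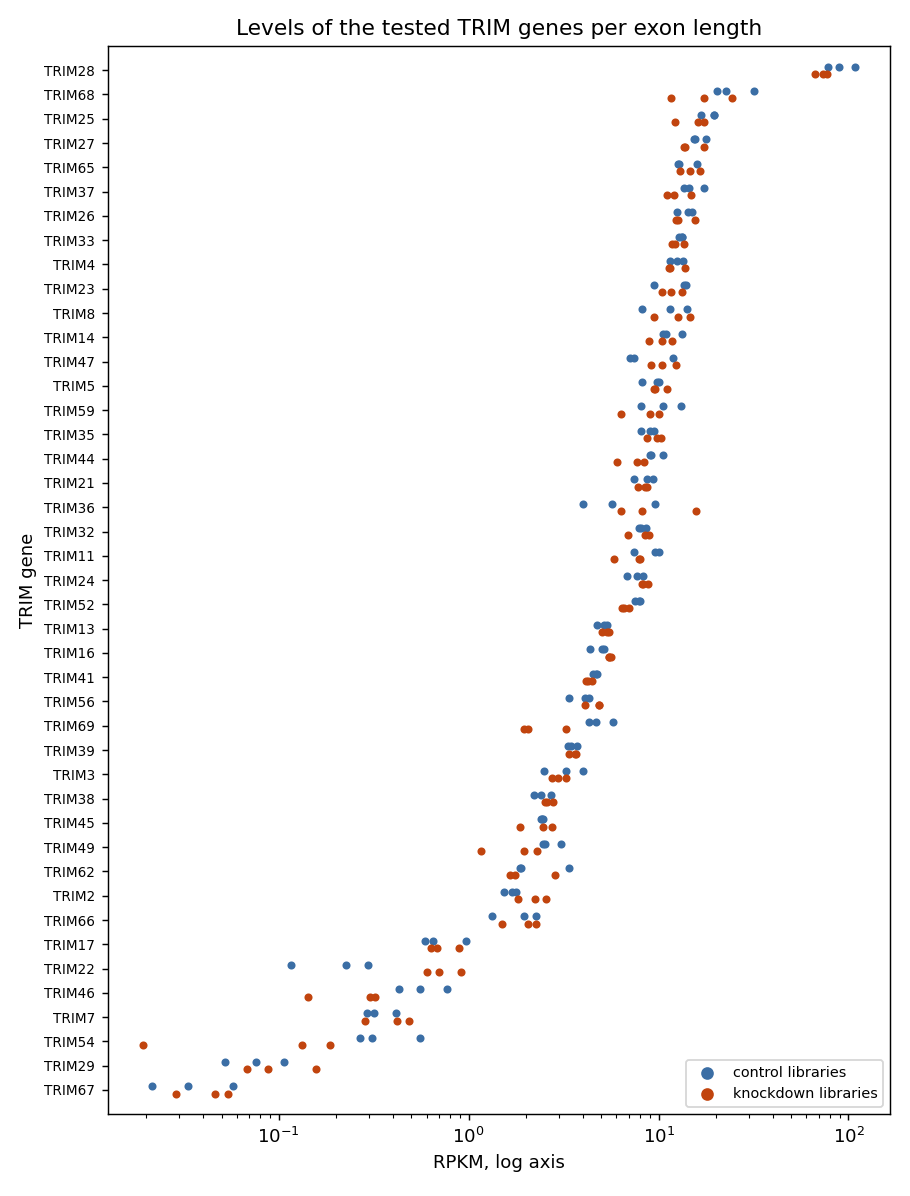
Levels of the 43 tested TRIM genes in RPKM (log axis), ordered by mean level, with 1 point per library for 3 control and 3 knockdown libraries. TRIM28 lies above all others, and TRIM22, TRIM46 and TRIM54 are among the 7 members under 1 RPKM.

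Estimates in the family lay on both sides of 0: 18 tested members had a higher and 25 a lower estimate in knockdown, with a median log2 fold change of -0.04, against 0.00 over all tested genes. Without knockdown replicate 2 the split turned to 23 higher and 20 lower, with a median of 0.02. Without the block 1 member rose, TRIM22, and 1 fell, TRIM69, and 0 were called when knockdown replicate 2 was omitted. Over all genes that omission cut the calls from 1603 of 21101 to 497 of 21588. Omitting any other single library also lowered that number, at the least to 1423 of 21565 (control replicate 2). Calls said below to be lost without a library stand beside this wider fall, and its part in them was not tested. In the main fit TRIM22 and TRIM69 are 4.65% of the 43, where 7.60% of all tested genes were called. By direction the shares were 2.33% higher and 2.33% lower among the members, against 2.72% and 4.88% of all tested genes. With the pairs as a block 2 members were higher and 10 lower, together 27.9% of the 43, where 26.1% of all tested genes were called. The 4.65% higher in that fit stood beside 11.2% of all genes, and the 23.3% lower beside 14.9%. The CPM ranges of the 2 groups did not overlap for 3 higher members (6.98%, against 13.4% of all tested genes) and 8 lower members (18.6%, against 17.0%). The share of the family that was called was therefore near that of the transcriptome, and the split between directions was not tested.

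**Figure D2:**
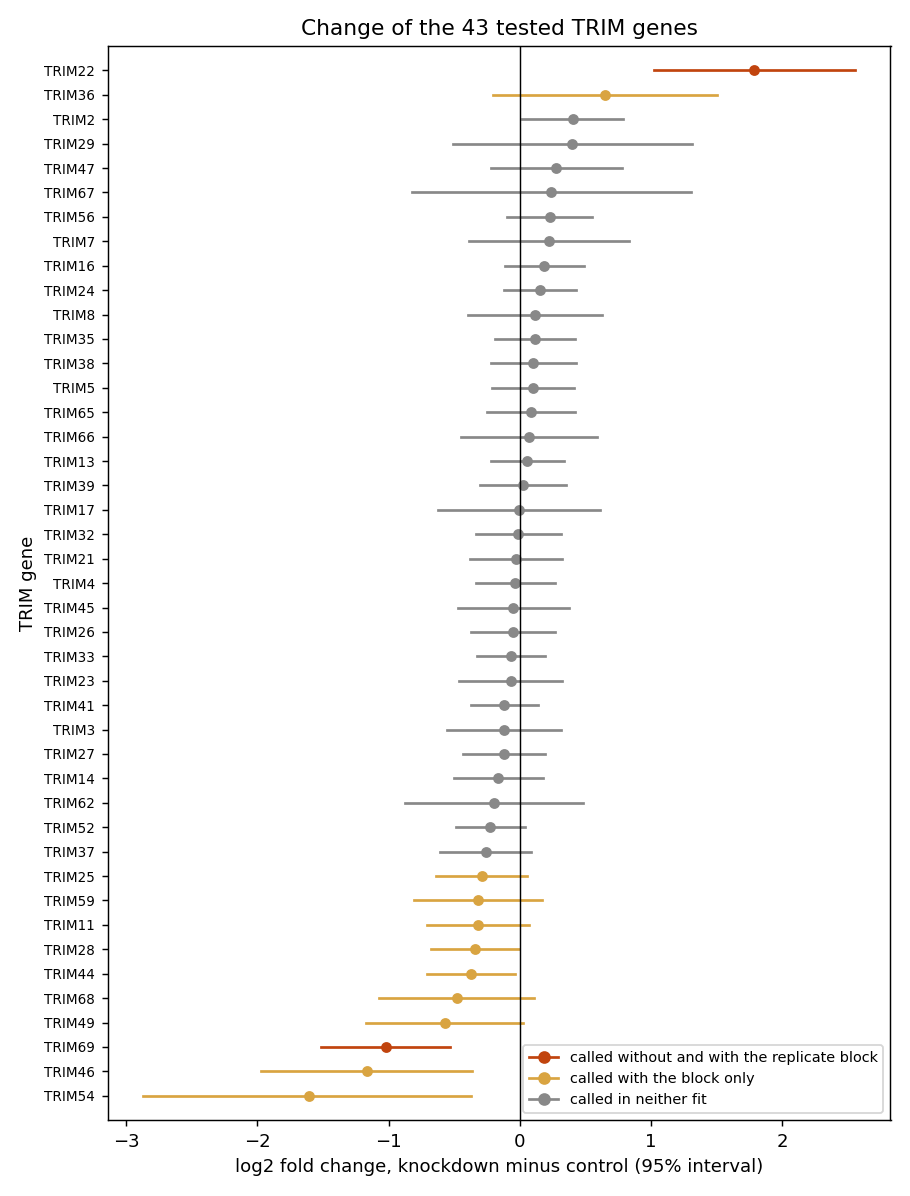
Log2 fold change (knockdown minus control) of the 43 tested TRIM genes, with the 95% interval of the fit without the block, coloured by whether the gene was called. TRIM22 is at 1.78 and TRIM69 at -1.02, and most other intervals include 0.

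TRIM22, an interferon-induced and p53-induced antiviral ligase of the PRY-SPRY class, rose from a low level. The 3 knockdown libraries held 3.64, 5.46 and 4.21 CPM for replicates 1 to 3, from 68, 202 and 92 reads. The 3 control libraries came to 0.70, 1.365 and 1.77 CPM, on 18, 41 and 62 reads. Every knockdown library lay above every control library. TRIM22 (ENSG00000132274.15, chromosome 11, 5689689 to 5737089, plus strand, hg38) rose 3.44-fold, to 4.44 ± 0.93 CPM against 1.28 ± 0.54 CPM in control (SD, n = 3). The edgeR fit gave a log2 fold change of 1.78 with SE 0.34 and adjusted p 0.017, and with the block 1.81 (adjusted p 0.000168). Within the replicate pairs the log2 differences were 2.38, 2.0 and 1.25. The call was lost without knockdown replicate 2, where the log2 fold change was 1.602 (adjusted p 0.0744), and held in the 5 fits without any other single library.

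TRIM22 lies inside the span of TRIM5 on the opposite strand, in a cluster with TRIM6 and TRIM34, its closest relatives. TRIM5, which blocks incoming retroviral capsids, shared no exon bases with TRIM22 in the authors' table and did not follow it. TRIM5 held 45.7, 45.9 and 53.2 CPM in knockdown and 48.4, 39.2 and 47.1 CPM in control, and the groups overlapped. Its log2 fold change was 0.10, with a 95% interval from -0.21 to 0.42 (adjusted p 0.688, edgeR). TRIM6 had 2 to 7 reads per library and TRIM34 0 to 2, so neither was tested. The cluster thus held 1 member that rose among its 2 tested genes. The exons of TRIM22 overlap those of OR56B1, an olfactory receptor gene with 12 reads in all 6 libraries together.

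TRIM69, a PRY-SPRY ligase that binds microtubules, fell in each pair. The knockdown libraries held 30.3, 18.95 and 18.2 CPM, and the control libraries 53, 40.03 and 43.5 CPM. The groups did not overlap, and knockdown replicate 1 was the nearest to the control libraries. TRIM69 (ENSG00000185880.12, chromosome 15, 44728988 to 44767829, plus strand) fell 2.03-fold, from 45.5 ± 6.72 to 22.5 ± 6.79 CPM (SD, n = 3). In the edgeR fit this was a log2 fold change of -1.02 with SE 0.22 and adjusted p 0.0257, and with the block -1.05 (adjusted p 5.19e-05). The pair differences were -0.81, -1.08 and -1.26. The call was lost without knockdown replicate 2 (adjusted p 0.112), knockdown replicate 3 (0.084), control replicate 1 (0.0786) or control replicate 3 (0.0623), where the log2 fold change ran from -1.06 to -0.86. TRIM69 shared no exon bases with another gene.

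**Figure D3:**
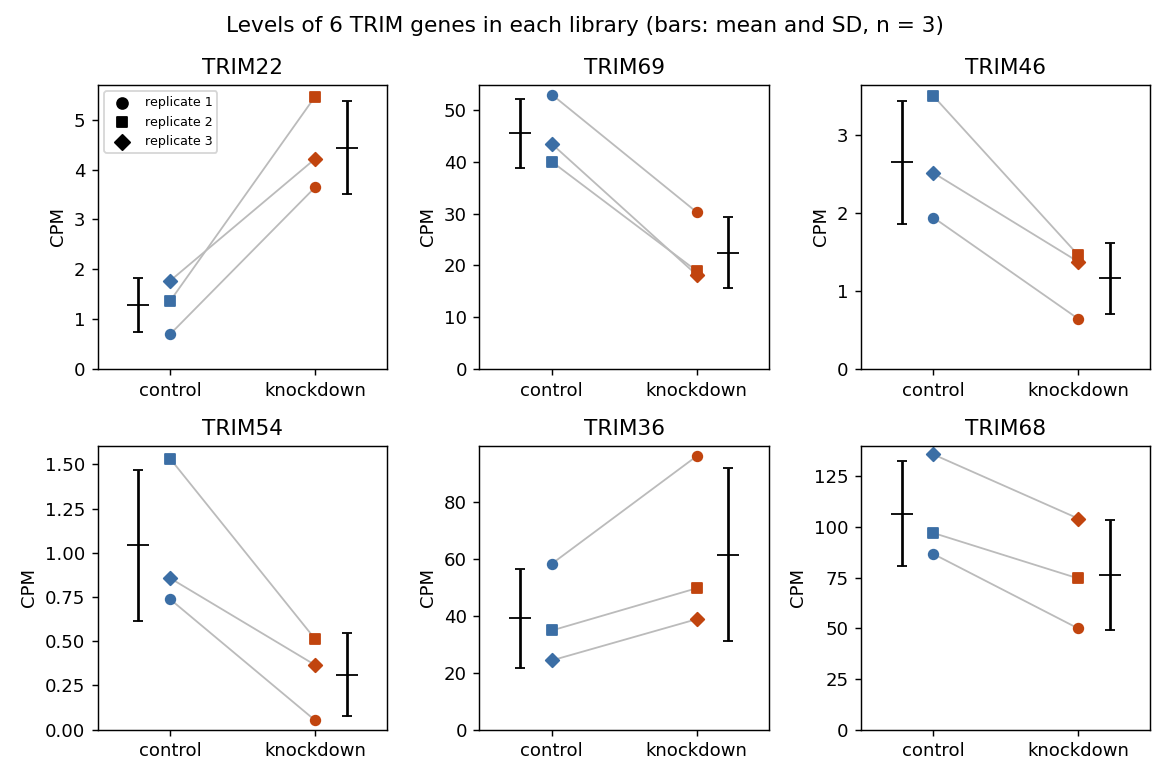
CPM of 6 TRIM genes in each library, with grey lines joining libraries of the same replicate number and black bars for the mean and SD of 3 libraries. TRIM22, TRIM69, TRIM46 and TRIM54 do not overlap between groups, while TRIM36 and TRIM68 overlap between groups but move the same way in each of the 3 pairs.

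The members that passed only with the block differed in their reads and in the size of the difference. TRIM46 and TRIM54 had large differences at few reads. TRIM49 had a moderate difference at 55 to 191 reads per library, and the others had small or moderate differences at many reads. TRIM46, which bundles microtubules at the start of the axon, held 0.64, 1.46 and 1.37 CPM in knockdown and 1.94, 3.50 and 2.51 CPM in control. The groups did not overlap, and its log2 fold change was -1.16 (adjusted p 0.0799 without the block and 0.00313 with it, edgeR). TRIM54, a muscle RING finger protein, had 1, 19 and 8 reads in knockdown and 19, 46 and 30 in control, which is 0.05, 0.51 and 0.37 against 0.74, 1.53 and 0.86 CPM. The estimate was -1.61 (adjusted p 0.109 and 0.0081). UCN, a gene on the other strand that shares exon bases with TRIM54, had more reads in all than TRIM54 itself, and the strand setting of the counting is not given in the sources used here.

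The androgen receptor-linked members had estimates on both sides of 0, and none was called without the block. TRIM36, which androgen induces in prostate cells, held 96.1, 49.7 and 38.8 CPM in knockdown and 58.3, 34.9 and 24.4 CPM in control. Both replicate 1 libraries were high, so the groups overlapped, but knockdown was above control in each pair, by log2 differences of 0.72, 0.51 and 0.67. The estimate was 0.65 (adjusted p 0.325 without the block and 0.000767 with it, edgeR), and it was 0.17 when knockdown replicate 1 was omitted, 0.40 without control replicate 3 and 1.10 without control replicate 1. TRIM68, the receptor coactivator, held 49.96, 74.6 and 104 CPM in knockdown and 86.7, 97.05 and 136 CPM in control. It was lower in each pair, by -0.80, -0.38 and -0.38, with a log2 fold change of -0.48 (adjusted p 0.294 and 0.00427), which was -0.26 when knockdown replicate 1, -0.27 when control replicate 3 and -0.78 when knockdown replicate 3 was omitted. TRIM24, a chromatin reader and coactivator of the receptor that also targets p53, was at 0.15 (95% interval -0.12 to 0.43, adjusted p 0.472 and 0.264). Of the 5 tested members of this list 0 were called without the block, where 7.60% of all tested genes were. An unadjusted p under 0.05 was found for 1 of them, and DESeq2 and limma-voom called 0. With the block 1 was higher and 2 lower, TRIM28 being the other lower one, where 11.2% of all tested genes were higher and 14.9% lower.

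Among chromatin readers of the PHD and bromodomain class, TRIM28 had the lowest estimate of the 4 tested. The knockdown libraries held 311, 295 and 268 CPM and the control libraries 359, 436 and 314 CPM, so the groups did not overlap, by a narrow margin. Its log2 fold change was -0.34 (adjusted p 0.193 without the block and 0.0425 with it, edgeR), and -0.22 when control replicate 2 was omitted. TRIM33, a ligase of the SMAD4 pathway, was at -0.07 (95% interval -0.32 to 0.19, adjusted p 0.769). A list of 14 partners of TRIM28 in gene silencing had 13 tested genes, with a median of -0.13. Of these 0 rose and 3 fell (23.1%, where 4.88% of all tested genes fell). CBX5, the gene of the heterochromatin protein HP1 alpha, fell from 499 ± 79.7 to 124 ± 12.1 CPM (SD, n = 3), a log2 fold change of -2.0 (adjusted p 0.000646), and was called whichever library was left out. The DNA methyltransferase DNMT1 fell by 0.85 and the deacetylase HDAC1 by 0.55 on the log2 scale. DNMT1 was not called when knockdown replicate 2 or 3 or control replicate 1 or 2 was omitted (adjusted p up to 0.118). HDAC1 was called in 1 of the 6 fits on 5 libraries, the one omitting control replicate 2 (adjusted p up to 0.15 in the others). The 3 calls became 1 when knockdown replicate 2, knockdown replicate 3 or control replicate 1 was omitted. With the block 1 partner was higher and 5 lower (7.69% and 38.5%, against 11.2% and 14.9% of all tested genes).

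The remaining members that passed only with the block were all lower. TRIM44, which has a zinc finger of the ubiquitin protease type in place of a RING, held 100.5, 79.4 and 110 CPM in knockdown and 117, 119 and 139 CPM in control, without overlap (log2 fold change -0.37, adjusted p 0.163 and 0.0171 with the block, edgeR). TRIM49, of a group of near-identical copies, was at -0.57 (adjusted p 0.221 and 0.0393), and its reads could be shared with the copies. TRIM25 (-0.29, 0.278 and 0.0411), TRIM11 (-0.32, 0.286 and 0.0276) and the membrane-anchored TRIM59 (-0.32, 0.405 and 0.0315) had overlapping groups and were lower in each pair. Omitting knockdown replicate 1 gave -0.16 for TRIM25 and -0.19 for TRIM11. TRIM59 was at -0.15 when knockdown replicate 3, -0.09 when control replicate 1 and -0.49 when control replicate 3 was omitted. Omitting knockdown replicate 2 gave -0.25 for TRIM44, and omitting knockdown replicate 3 gave -0.34 for TRIM49. TRIM59 shares exon bases with SMC4 on the other strand, a condensin gene with 33720 reads against 12577 for TRIM59, which was itself lower with the block (log2 fold change -0.56, adjusted p 0.00129). The part of SMC4 reads in the TRIM59 value was not tested.

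With 1 replicate pair left out in turn, 5 of the 12 members called with the block were called the same way each time. These were TRIM22 and TRIM36, which were higher, and TRIM46, TRIM54 and TRIM69, which were lower. The members called with the block were 2 higher and 3 lower without pair 1, 5 and 11 without pair 2, and 3 and 6 without pair 3. Over all genes the same 3 fits called 3158 of 22218, 7409 of 20385 and 4572 of 21393, so the number called moved in the same order.

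By class, both genes called without the block were among the 20 tested of the 38 genes sorted into the PRY-SPRY class. That is 10% of the 20, against 7.60% of all tested genes. Members without a RING finger and those with COS and FN3 domains were sorted into other classes, whatever further domains they have. Of the 20, 8 had an estimate above 0 and 12 below it, with a median of -0.03 and a range from -1.02 to 1.78. With the block 1 was higher and 5 lower, 30% against 26.1%. The 3 tested members of the class with COS, FN3 and PRY-SPRY domains ranged from -1.16 for TRIM46 to 0.65 for TRIM36. The 3 tested NHL members ranged from -0.12 to 0.40, with 1 at an unadjusted p under 0.05. In either fit 0 of them were called, against 7.60% of all tested genes without the block and 26.1% with it. TRIM32, an NHL member mutated in limb-girdle muscular dystrophy, was at -0.01 (95% interval -0.34 to 0.32). TRIM8, TRIM27 and TRIM65 had log2 fold changes of 0.12, -0.12 and 0.09, and intervals from -0.39 to 0.63, -0.43 to 0.19 and -0.25 to 0.42. TRIM37, a ligase of centrioles and histone H2A, was at -0.26 (-0.60 to 0.09), lower in each pair without a call in either fit. TRIM29 was at 0.40 with a wide interval, -0.51 to 1.32, from 13 to 38 reads per library.

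A chosen list of interferon-induced members held 10 genes, without TRIM69, and 9 were tested. Of these TRIM22 was the 1 that rose, while 0 fell (11.1% called, against 7.60% of all tested genes). With the block 1 was higher and 1 lower, TRIM25, which is 22.2% against 26.1%. The median was 0.10, and without TRIM22 the others ranged from -0.29 to 0.23. TRIM21, the cytosolic antibody receptor, was at -0.03 (95% interval -0.38 to 0.33), and TRIM26 at -0.05 (-0.37 to 0.27). A list of other interferon-stimulated genes had 27 tested members, of which 4 rose and 2 fell (14.8% and 7.41%, where 2.72% and 4.88% of all tested genes did). IRF1, an interferon-responsive transcription factor, rose from 3.62 ± 1.24 to 10.5 ± 0.86 CPM (SD, n = 3, log2 fold change 1.53, adjusted p 0.0118, edgeR), a call lost without knockdown replicate 2 (0.0525). DTX3L rose by 0.68 and the RNA sensor OAS3 fell by 1.33 on the log2 scale. Omitting knockdown replicate 3 or control replicate 3 ended the DTX3L call (adjusted p up to 0.0535), and omitting knockdown replicate 2 or control replicate 1 ended that of OAS3 (up to 0.0687). Omitting knockdown replicate 2 left 1 call in place of 6, omitting control replicate 3 left 2, and with the block 12 were higher and 3 lower (44.4% and 11.1%, against 11.2% and 14.9% of all tested genes).

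A chosen list of 9 TRIMs tied to p53 by their activity or induction, without TRIM69, was tested in full. Of these 1 rose (TRIM22) and 0 fell, which is 11.1% called against 7.60% of all tested genes. With the block 1 was higher and 2 lower, TRIM28 and TRIM59, which is 33.3% against 26.1%. The median of these 9 was 0.03.

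Among E2 enzymes, the E1 enzyme UBA1 and ubiquitin genes, which supply TRIM ligases, 0 rose and 2 fell of 19 tested (10.5%, where 4.88% of all tested genes fell). UBA1, which charges most E2 enzymes with ubiquitin, held 193, 158 and 168 CPM in knockdown and 288, 287 and 251 CPM in control. It fell by 0.67 on the log2 scale (adjusted p 0.0172, edgeR), and was not called once knockdown replicate 2, knockdown replicate 3 or control replicate 1 was omitted (up to 0.0894). UBE2E2 fell by 0.82, and was called in 1 of the 6 fits on 5 libraries, the one omitting control replicate 1 (up to 0.0987 in the others). UBE2K was at -0.48 (0.0624, and 0.00456 with the block). The 2 calls became 0 on omitting knockdown replicate 2 or 3, and 1 if the omitted library was knockdown replicate 1 or either of control replicates 1 and 3. The median of the list was -0.18, and with the block 6 were lower (31.6%, against 14.9% of all tested genes) and 0 higher.

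Family members that carry other names gave 0 calls without the block among 6 tested, where 7.60% of all tested genes were called. With the block 1 of these members was higher and 1 lower (33.3%, against 26.1% of all tested genes). Their unadjusted p was under 0.05 in 2 cases, while limma-voom and DESeq2 called 0. MID1, a microtubule-bound ligase, was at -1.27 (adjusted p 0.0699, and 0.017 with the block, edgeR). RNF207 was at 0.51 (0.151, and 0.0157 with the block) and MEFV, the gene of pyrin, at 0.54 (0.463 and 0.273). Without control replicate 3, 1 of these genes was called.

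Sequence near the called genes was examined for interferon motifs and for a short word. RefSeq promoters (GRCh38.p14, 250 bases before to 50 after a start) were found for 56 of the 71 members, with 75 promoters in all. The core of the interferon-stimulated response element, GAAANNGAAA on either strand, occurred in 10 of the 75 (13.3%), against 3.57% of all 35116 promoters. The interferon gamma motif TTCNNNGAA occurred in 15 (20%, against 7.66%). These 15 included promoters of TRIM49, TRIM49B, TRIM49C, TRIM64 and TRIM64B, copies whose promoters may share sequence. The excess of either motif was not tested. A p53 site by its consensus occurred in 0 of the 75, but in only 10 of all 35116 (0.0285%). At that rate the 0 carries no information on the family. TRIM22 had no entry in the table and was not searched. The response element core was found for 10 genes, among them TRIM5, TRIM21, TRIM26, TRIM44 and TRIM69, of which only TRIM69 was called without the block. The TRIM69 promoter is shown because that gene fell, and its capitals mark the core on the minus strand (chr15:44736278-44736577, plus strand).
TRIM69: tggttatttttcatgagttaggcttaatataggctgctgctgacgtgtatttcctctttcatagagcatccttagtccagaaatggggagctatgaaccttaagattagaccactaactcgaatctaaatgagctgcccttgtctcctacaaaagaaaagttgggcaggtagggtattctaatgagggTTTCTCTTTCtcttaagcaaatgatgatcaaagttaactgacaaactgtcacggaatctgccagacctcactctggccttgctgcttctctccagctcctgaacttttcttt

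The word CTCTGT comes from an earlier search of these same counts for words in 3' UTRs that go with lower genes, so its values over all genes are a description. In GENCODE 29 it occurred in the 3' UTR of at least 1 coding transcript for 52.5% of tested genes with an annotated one, and lengths below are those of the longest 3' UTR of a gene. Of genes with the word 9.59% fell and 3.12% rose, and of genes without it 3.46% fell and 2.84% rose. The median 3' UTR was 2262 bases with the word and 632 without, and the part of that length in the difference was not tested. Of the 43 TRIM members 30 had the word, and of these 1 rose and 0 fell. Of the 13 without it 0 rose and 1 fell. TRIM22 rose with the word at 2 places, and TRIM69 fell without it, in an annotated 3' UTR of 57 bases. With the block 8 of the 30 were lower (26.7%, against 23.7% of all genes with the word) and 2 of the 13 (15.4%, against 15.7%). The sites of TRIM22, TRIM46 and TRIM54 are shown, 30 bases each in transcript direction with the word in capitals, to set a gene that rose beside genes with lower estimates. The TRIM46 site lies in the 130-base 3' UTR of a shorter transcript, not in the longest one of that gene, which has 781 bases. They lie on the plus strand of hg38, at chr11:5709905-5709934, chr11:5709982-5710011, chr1:155179831-155179860 and chr2:27307130-27307159.
TRIM22 first site: tgcaaggaagggCTCTGTtccatgcctctc
TRIM22 second site: ctttatgtacatCTCTGTgcccaagttttc
TRIM46: ccccgacacgggCTCTGTgtatgtgctgcg
TRIM54: cctattgggcacCTCTGTgatgccaggagc

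The other 28 members had too few reads for the test, at most 54 in all 6 libraries together, and 3 of them had 0. Of these, TRIM43, TRIM43B, TRIM48, TRIM49B and TRIM49C were read mainly in knockdown replicate 1. TRIM49B had 40, 8 and 4 reads in knockdown and 1, 0 and 1 in control. TRIM48 had 25, 7 and 2 reads against 2, 3 and 2, and TRIM43 had 23, 2 and 0 against 0, 1 and 4. These genes are known from the earliest embryo stages and are silent in most adult tissues. TRIM49C had 18, 3 and 3 reads against 3, 2 and 0, and TRIM43B had 12, 2 and 1 against 0, 1 and 0. Copies in this group are near-identical, so their reads could be exchanged. With no filter on low counts all of these were called higher, with adjusted p from 7.74e-09 to 0.021 (edgeR), and without knockdown replicate 1 as well 0 of them were, with adjusted p from 0.131 to 0.871. In that fit TRIM49B and TRIM43B were still at log2 fold changes of 2.96 and 1.84, TRIM48 and TRIM49C at 0.89 and 0.83, and TRIM43 at -0.66. DESeq2 called TRIM49B (0.0021) and gave no adjusted p for the others. The calls of these genes without the filter thus needed knockdown replicate 1, while 4 of the 5 kept an estimate above 0 without it.

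**Figure D4:**
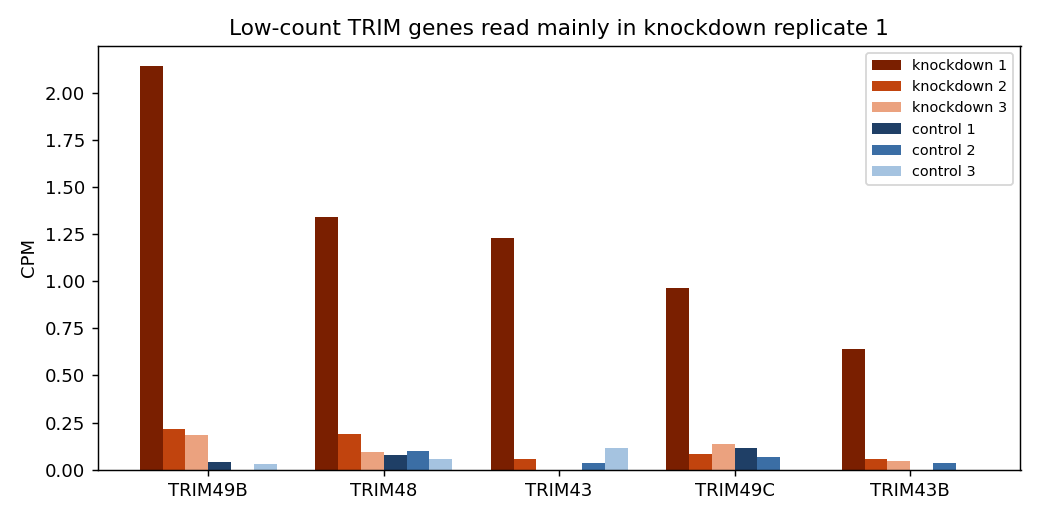
CPM of 5 TRIM genes with too few reads for the test, with 1 bar per library. Knockdown replicate 1 reaches 2.14 CPM for TRIM49B, above the other 5 libraries for each gene.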

How the data were processed

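The authors deposited raw counts of reads for each gene in 6 libraries, together with exon lengths. Per the submitters' processing notes, bcl2fastq, STAR 2.5, featureCounts from Subread 1.6.5 and edgeR 3.20.8 were used with hg38, and strand setting and annotation release are not given in the sources used here. Rows of the same names on scaffolds (48) held 0 reads.

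The counts were fitted here with edgeR 4.0.16 in R 4.3.3 (TMM scaling, filterByExpr by group, two-sided quasi-likelihood F test, Benjamini-Hochberg adjustment over all tested genes, threshold 0.05), after a check on simulated counts. Intervals are 95% intervals of the fitted coefficient. Alternatives used DESeq2 1.42.0 and limma 3.58.1. The series text calls the libraries biological replicates. Libraries with the same number deviated together (correlations 0.554, 0.381 and 0.358, against -0.39 to 0.06 for different numbers), so the numbers were taken as pairs. Deviations were taken from the mean of each group. Correlations above 0 for the same number therefore press those for different numbers below 0, which widens the contrast. The same counts then entered the fit with the block.

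Members, lists and tests were chosen with earlier results of these data known. Named genes were WDR77, each member called in either fit, the 5 with the highest RPKM, the 5 such members called in neither fit, 16 fixed relatives, and the 3 smallest p in each other list. The members of the low-count group were chosen after their values were seen.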

Additional observations from a re-analysis of the deposited data

Results flagged for a closer look

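Of the 28 TRIM genes left out of the test, 5 showed reads in 1 knockdown library above the level of every control library, by exact Poisson intervals that cover counting error only. In knockdown replicate 1 TRIM49B was at 2.14 CPM (lower bound 1.53, against a highest control upper bound of 0.216). TRIM48 was at 1.34 CPM (0.866 against 0.292), TRIM43 at 1.23 CPM (0.781 against 0.292), TRIM49C at 0.964 CPM (0.571 against 0.34) and TRIM43B at 0.643 CPM (0.332 against 0.186).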

How the results depend on the processing

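The settings that omit a replicate pair, or a library together with the filter, were chosen after seeing the data. TRIM22 was called under 17 of 18 alternatives and TRIM69 under 14 of 18, with log2 fold changes from 1.54 to 2.15 and from -1.31 to -0.86. The 1 higher and 1 lower TRIM calls became 2 and 10 when the replicate block was added, 2 and 2 in DESeq2 (TRIM49B and TRIM46 added), and 7 and 4 with no filter on low counts. Without 1 library each ranged from 0 to 1, and with the block and without pair 1, 2 or 3 they were 2, 5 and 3 higher and 3, 11 and 6 lower. Over all genes 1603 of 21101 were called in the main fit and 5506 of 21101 with the block. DESeq2 called 2324 of 20190, and the fit with no filter 3148 of 41091. Omitting knockdown replicate 1, 2 or 3 left 1172 of 22063, 497 of 21588 and 681 of 21792. Omitting control replicate 1, 2 or 3 left 818 of 22191, 1423 of 21565 and 889 of 21831. The 0 calls of TRIMs with other names, 2 of E2 enzymes, 3 of TRIM28 partners and 6 of interferon-stimulated genes were 2, 6, 6 and 15 with the block, and 1, 5, 5 and 12 without the filter. TRIM28 partners were 5 in DESeq2, and E2 enzymes 1 with upper quartile scaling. Without 1 library these lists ranged from 0 to 1, 0 to 2, 1 to 3 and 1 to 5. With the block they were 0, 3, 5 and 13 without pair 1, 1, 9, 8 and 13 without pair 2, and 1, 5, 6 and 15 without pair 3. With neither the filter nor knockdown replicate 1, E2 enzymes and TRIM28 partners were 4 and 5. Upper quartile scaling moved the median of all genes to 0.124 and that of the TRIM members to 0.087, so that 29 members were above 0 and 14 below. With the block and without pair 2, 24 were above and 18 below (median 0.042), and with at least 1 CPM in 3 libraries 20 were above and 20 below. With upper quartile scaling TRIM32, TRIM21, TRIM33, TRIM27 and TRIM26 changed sign (0.114, 0.093, 0.056, 0.003 and 0.069). TRIM32 did so with RLE scaling (0.003), and TRIM32 and TRIM21 at the 1 CPM minimum (0.039 and 0.018). With the block, TRIM32, TRIM21 and TRIM27 did so without pair 1 (0.002, 0.040 and 0.019), and TRIM32 and TRIM26 without pair 2 (0.108 and 0.045). Without 1 library, sign changes came within the ranges of TRIM32 (-0.083 to 0.095), TRIM21 (-0.134 to 0.081), TRIM26 (-0.173 to 0.049), TRIM65 (-0.004 to 0.187), TRIM8 (-0.031 to 0.300) and TRIM5 (-0.001 to 0.199). The causes were not tested. Few reads limited TRIM54, TRIM29 and the 28 untested members.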

Other observations

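Genes that the embryonic transcription factor DUX4 is known to switch on include TRIM43, TRIM48 and TRIM49 copies, so 19 other genes of that kind were looked up after the values of these TRIM genes had been seen. Of the 17 with any read, 13 had their highest CPM in knockdown replicate 1, 1 in knockdown replicate 2, 1 in knockdown replicate 3 and 2 in control replicate 2. Knockdown replicate 1 was the smallest library (18674994 scaled counts, against 21838320 to 36991388 in the others), so 1 read weighed most there. KDM4E, with its only read there, and ALPPL2, with 1 read in each knockdown library, were among the 13. The share of other genes with few reads that were highest in that library was not tested. PRAMEF12 had 62, 22 and 13 reads in knockdown and 2, 2 and 3 in control. ZSCAN4 had 21, 4 and 11 reads against 3, 2 and 2, and PRAMEF1 had 14, 0 and 2 against 1, 1 and 1. LEUTX had 3, 1 and 0 reads against 0, 0 and 0. RFPL1 went the other way, with 4, 7 and 1 reads in knockdown and 8, 13 and 15 in control, and its CPM ranges did not overlap. DUXA had 6, 3 and 0 reads against 3, 7 and 3, with overlapping groups. Of this list 3 genes were tested and 1, PRAMEF12, was called (log2 fold change 4.15, adjusted p 0.0242, edgeR). That is 33.3% of the 3, against 7.60% of all tested genes, and with the block 33.3% against 26.1%. The call of PRAMEF12 was not examined in fits that omit a library. TRIM49, which had enough reads for the test, had a lower estimate in knockdown (-0.57).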
